A study of Homo sapiens with 12 samples.

Results

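SPA1 is a long noncoding RNA of the Prader-Willi region of chromosome 15, and was defined here as the plus strand of chromosome 15 from 25227141 to 25261547 (hg19), which is 34407 nt from the start of the small nucleolar RNA gene SNORD107. The interval is set by position, and no measured value enters its rule. Of 720026 binding windows in 12 libraries, 548 lay in SPA1, 537 of them in wild-type (WT) cells and 11 in P-KO cells. A window is 11 nt wide and is centred on a listed crosslink position. Positions were kept from the highest count downwards, at least 11 nt apart. A kept position can thus have a dropped one of higher count within reach. No window lay on the minus strand of the interval in any of the 12 libraries.

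SPA RNAs are made from a long transcript that continues past SNURF-SNRPN. They begin with a small nucleolar RNA, which protects the 5′ end in place of a cap, and they end in a poly(A) tail. They are retained in the nucleus near their site of synthesis and are known for binding several splicing regulators. Paternally inherited deletions of the region cause Prader-Willi syndrome. This is background and was not measured here. In the RefSeq gene order, SNORD107 is followed by PWAR5, SNORD64, SNORD108, PWAR6 and SNORD109A, and the names alone were used because that table is of another genome build.

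The study used H9 cells, a human embryonic stem cell line in long use, crosslinked at 400 mJ/cm2. In iCLIP, ultraviolet light binds proteins covalently to the RNA in contact with them, 1 protein is pulled down with an antibody, and the place where its cDNA stops marks the contact. Each of 3 proteins was recovered from P-KO cells and from WT cells, with 2 biological replicates of each: FOX2 (RBFOX2, a splicing factor that binds GCAUG elements), TDP43 (a nuclear protein that binds GU-rich RNA) and hnRNP M (an abundant nuclear splicing factor). The source label of the P-KO cells names SPA and PKO, and the labels give neither what was deleted, what the letter P stands for nor the number of clones. No measurement of RNA abundance was used here, so less SPA1 RNA and less contact per RNA molecule cannot be told apart in any comparison that follows. The cell type was not checked against marker genes, because the lists hold transcript identifiers without gene names.

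Libraries differed in depth from 58191 to 648651 window counts, and the 4 hnRNP M libraries were the shallowest, with at most 123482. Precision in SPA1 is limited by 24 to 122 windows in each WT library. Counts in the lists were at least 2, so a library with no line in SPA1 is called listed at 0; that gives neither a fold nor an upper limit. The intervals given below are exact 95% Clopper-Pearson intervals and cover counting error alone.

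In P-KO cells SPA1 was nearly empty for all 3 proteins, whereas in WT cells all 3 proteins were listed along it. For FOX2, SPA1 held 0% and 0.00200% of window counts in the P-KO libraries, against 0.316% (interval 0.293% to 0.341%) and 0.293% (0.274% to 0.313%) in the WT libraries. For TDP43 it held 0.00232% and 0.00478% in P-KO, against 0.671% (0.637% to 0.707%) and 0.461% (0.436% to 0.486%) in WT. For hnRNP M both P-KO libraries were listed at 0, against 0.354% (0.308% to 0.404%) and 0.214% (0.189% to 0.241%) in WT. The groups did not overlap for any protein, and the highest P-KO share lay far below the lowest WT share. The share of tiles genome-wide without such overlap was not counted, so nothing is read from the lack of overlap alone.

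Averaged over replicates, the FOX2 share was 0.00100 ± 0.00142% in P-KO and 0.305 ± 0.0165% in WT, the TDP43 share 0.00355 ± 0.00174% in P-KO and 0.566 ± 0.149% in WT, and the hnRNP M share 0% in P-KO and 0.284 ± 0.0990% in WT (SD, n = 2 each). Over the 3 proteins the mean was 0.00152% in the 6 P-KO libraries and 0.385% in the 6 WT libraries, a difference of -0.383 percentage points (exact permutation test, two-sided, genotype permuted within each protein, p = 0.00926, the smallest value that the 216 arrangements allow). A single protein with 2 libraries against 2 cannot go below 0.333 in such a test. TDP43 had the highest mean share in WT, but its replicate SD was 0.149 percentage points and its replicate 2 lay closer to hnRNP M replicate 1 than to its own replicate 1.

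**Figure D1:**
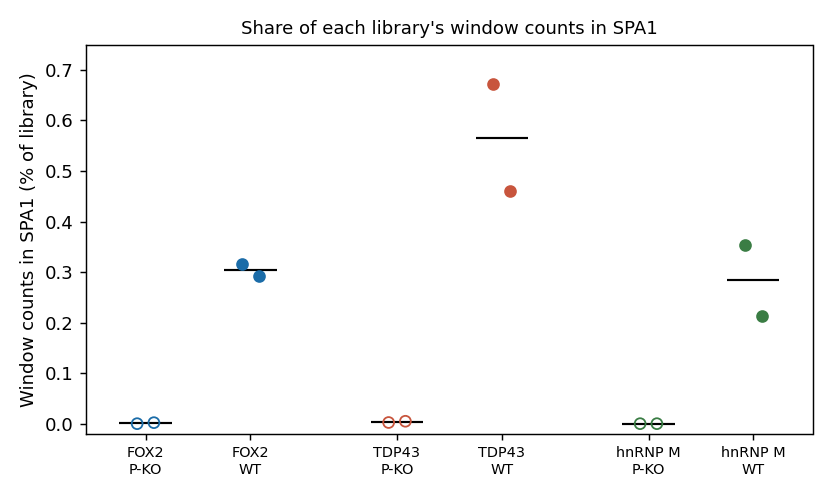
Percent of each library's window counts that lay in SPA1 (vertical axis), with P-KO left of WT for each protein, one point per library and a bar at the mean of 2 replicates. All 6 P-KO libraries lie at or below 0.00478% and all 6 WT libraries at or above 0.214%.

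For a test against the rest of the genome, each chromosome strand was divided into tiles of 34407 nt laid from the SPA1 start, so that SPA1 was exactly 1 tile. The effect of P-KO common to the proteins was a fitted log2 fold change of -7.73 in SPA1 (edgeR quasi-likelihood F test, adjusted p = 3.18e-13). This fitted value pools FOX2 and TDP43 with hnRNP M, whose P-KO libraries were listed at 0. Of 11548 tiles tested, 5 passed the adjusted threshold of 0.05, which is 0.0433% of tiles, and all 5 were lower in P-KO. SPA1 was 1 of them, 3 were the next tiles downstream on the same strand, and 1 lay elsewhere.

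For the single proteins the fitted log2 fold change in SPA1 was -7.30 for FOX2, whose P-KO replicate 1 was listed at 0 (edgeR, adjusted p = 0.0148, where 0.0260% of tiles passed) and -7.31 for TDP43 (adjusted p = 0.00651, where 0.0173% passed). For hnRNP M the adjusted p was 0.000899 (0.0346% of tiles passed), and no fold is read from the fit because both P-KO libraries were listed at 0. FOX2 had 3 such tiles, TDP43 2 and hnRNP M 4, and all of them lay within SPA1 and the next 3 tiles. The FOX2 call was lost without FOX2 WT replicate 1 (adjusted p = 0.0933), FOX2 WT replicate 2 (0.0721) or FOX2 P-KO replicate 1 (1.0, with a log2 fold change of -6.39), and the TDP43 call without either TDP43 P-KO library (1.0 each), as was the hnRNP M call without hnRNP M P-KO replicate 1 (0.120) or replicate 2 (0.0735). Without FOX2 P-KO replicate 2 the FOX2 call held, but the P-KO library that remained was listed at 0 and the fitted fold change, -12.4, depends on the prior count of the fit. When only the groups compared were fitted, the adjusted p was 0.0962 for TDP43 and 0.0924 for hnRNP M; the common effect passed under every alternative run.

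At the upstream end of SPA1 the order of the listed counts of FOX2 and TDP43 changed within 1 kb. In the 1 kb before the SPA1 start, FOX2 had 12 and 22 window counts in P-KO, against 0 and 5 in WT, TDP43 had 4 and 2 in P-KO, against 0 and 0 in WT, and hnRNP M was listed at 0 in all 4 libraries. The FOX2 counts were 0.00517% and 0.00339% of the P-KO libraries, against 0% and 0.00173% of the WT libraries. In the first 1 kb inside SPA1 all 6 P-KO libraries were listed at 0, against 18 and 16 counts in FOX2 WT, 31 and 20 in TDP43 WT and 11 and 8 in hnRNP M WT. The FOX2 and TDP43 P-KO libraries were thus listed just before the start and not just after it, while all 6 WT libraries had more counts just after it than just before it. Before the start the P-KO counts lay in 6 and 4 windows for FOX2 and 1 and 1 for TDP43, some of them at the lowest count listed. The lowest count that a list held differed between libraries, so a WT library listed at 0 there is not shown to be lower. The order was not tested.

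The whole tile before SPA1, on the side of SNURF-SNRPN, held 164 and 546 counts in FOX2 P-KO, against 134 and 163 in FOX2 WT. As shares of libraries of unlike depth these were 0.0706% and 0.0842%, against 0.0613% and 0.0565%. The tile held 76 and 65 in TDP43 P-KO, against 25 and 44 in TDP43 WT (0.0440% and 0.0222%, against 0.0120% and 0.0155%). For hnRNP M it held 78 and 51 in P-KO, against 31 and 71 in WT (0.126% and 0.0876%, against 0.0503% and 0.0575%). Its fitted common log2 fold change was 0.86 and did not pass (edgeR, adjusted p = 0.999). The tile after SPA1 held 0 and 6 counts in FOX2 P-KO, against 284 and 305 in FOX2 WT, 3 and 4 in TDP43 P-KO, against 956 and 739 in TDP43 WT; hnRNP M had 0 and 0 in P-KO, against 320 and 438 in WT. The lowered stretch therefore ran on past the downstream end of SPA1 (log2 fold change -8.02, edgeR, adjusted p = 1.785e-13).

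Within WT cells the signal was concentrated near the 5′ end for all 3 proteins, and TDP43 had a further block at the 3′ end. The first 6 kb held 64.3% and 56.0% of the SPA1 counts in the FOX2 WT libraries, 79.1% and 80.8% in TDP43 WT, and 51.8% and 61.0% in hnRNP M WT. In the last 3 kb lay 1.45% and 1.65% of the FOX2 counts, 16.7% and 10.7% of the TDP43 counts and 0% and 3.79% of the hnRNP M counts. These 2 stretches were set after the profile was seen and were not tested.

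The median position by count was 5.177 and 5.027 kb from the SPA1 start for FOX2 WT, 4.855 and 4.704 kb for TDP43 WT, and 5.603 and 5.179 kb for hnRNP M WT. The medians of the 3 proteins thus lay within 1 kb of one another. The mean position was 9.97 ± 1.15 kb for FOX2, 8.79 ± 0.687 kb for TDP43 and 10.9 ± 0.496 kb for hnRNP M (SD, n = 2 each). The means of FOX2 and TDP43, and those of FOX2 and hnRNP M, differed by about the spread between replicates, while those of TDP43 and hnRNP M differed by more than either SD; with 2 libraries each this was not tested.

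**Figure D2:**
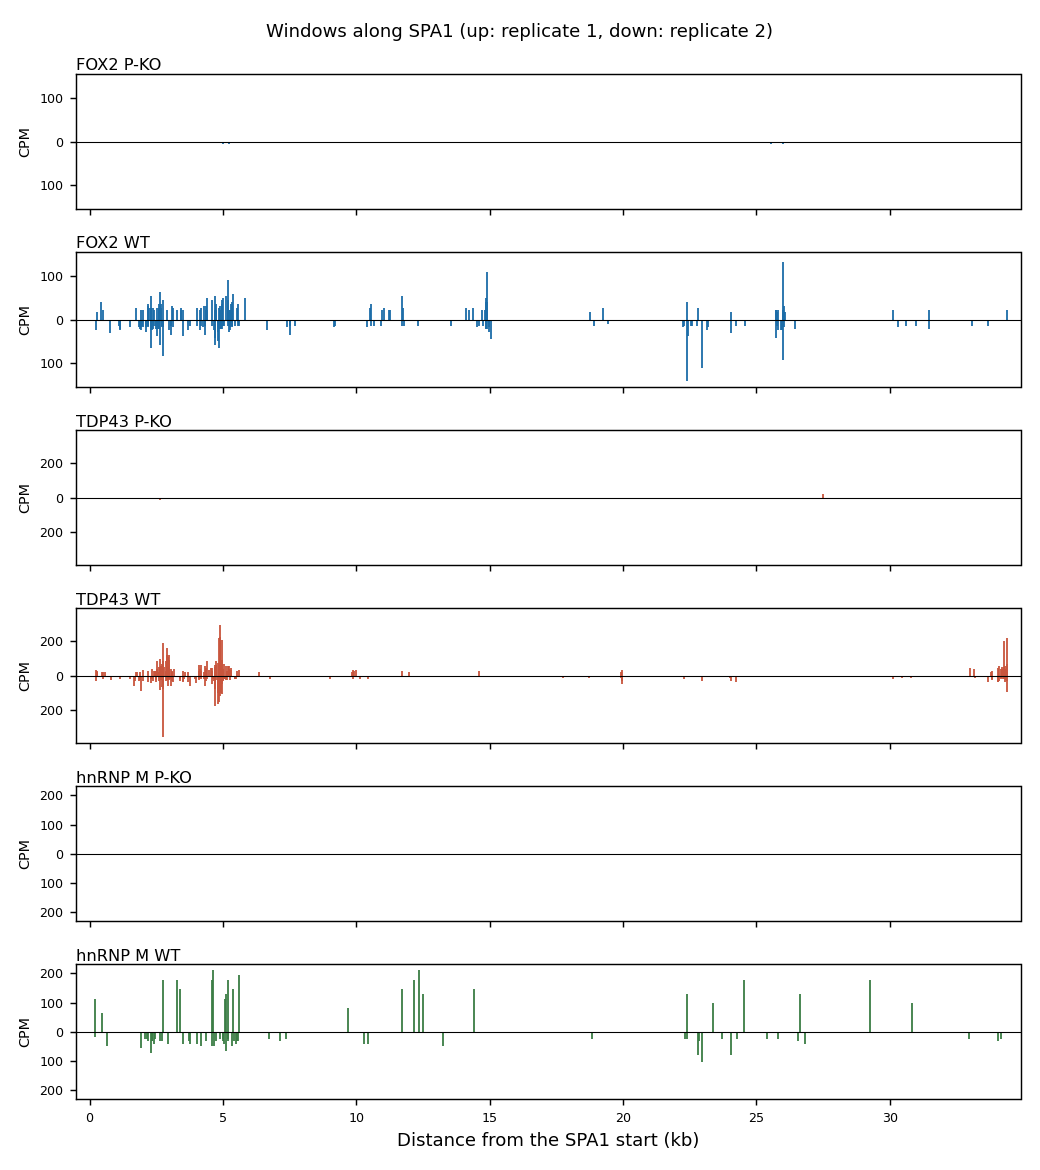
Window counts per 1000000 of the library (CPM) against distance from the SPA1 start in kb, one panel per protein and genotype with P-KO above WT, replicate 1 drawn upwards and replicate 2 downwards. WT windows crowd the first 6 kb for all proteins and TDP43 has a second block at the 3′ end, while the P-KO panels hold 11 windows in all.

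At a resolution of 1 kb, the highest FOX2 bin was 2 to 3 kb from the start, with 596 ± 9.15 window counts per 1000000 of the library (CPM) in WT (SD, n = 2). It was followed by 4 to 5 kb with 530 ± 78.2 CPM and 5 to 6 kb with 384 ± 264 CPM, and beyond the first 6 kb FOX2 had 273 ± 170 CPM at 14 to 15 kb and 216 ± 209 CPM at 22 to 23 kb. The first 3 bins differed by less than the largest SD among them, and at 22 to 23 kb the SD came close to the mean. Those 3 bins stood in the same order in both replicates, with 590, 585 and 571 CPM in replicate 1 and 603, 475 and 197 CPM in replicate 2.

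TDP43 was highest at 4 to 5 kb with 2017 ± 529 CPM, then at 2 to 3 kb with 1477 ± 545 CPM, and next from 34 kb to the 3′ end with 693 ± 415 CPM. That last bin runs only from 25261141 to 25261547, so its level and rank are not for an equal length. For hnRNP M the highest bins were 5 to 6 kb with 572 ± 270 CPM, 4 to 5 kb with 345 ± 63.5 CPM and 2 to 3 kb with 284 ± 149 CPM. In both replicates TDP43 had more at 4 to 5 kb than at 2 to 3 kb (2392 against 1862 CPM and 1643 against 1092 CPM). hnRNP M likewise had more at 5 to 6 kb than at 4 to 5 kb in both (763 against 389 CPM and 381 against 300 CPM). These orders were not tested. Of 35 bins, FOX2 WT filled 18 and 25, TDP43 WT 13 and 17, and hnRNP M WT 15 and 18. TDP43, which had the most counts in SPA1, was therefore spread over the fewest bins in replicate 1 and over fewer than either other protein in replicate 2.

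SPA1 was also divided into 9 segments of 3823 nt. Segments 1 and 2, from the start to 7.646 kb, had the highest mean CPM for every protein. Segment 1 had 0 and 0 counts in FOX2 P-KO, against 192 and 280 in FOX2 WT, 0 and 8 in TDP43 P-KO, against 482 and 529 in TDP43 WT; hnRNP M had 0 and 0 in P-KO, against 42 and 77 in WT. Segment 2 had 0 and 7 in FOX2 P-KO, against 253 and 220 in FOX2 WT, 0 and 4 in TDP43 P-KO, against 627 and 530 in TDP43 WT; hnRNP M had 0 and 0 in P-KO, against 71 and 94 in WT. They were the 2 highest segments in 5 of the 6 WT libraries; in hnRNP M WT replicate 1 segment 4, with 50 counts, stood above segment 1.

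Segments 5 and 8 were nearly empty and did not pass the filter on low counts; in WT they held 0 to 7 and 0 to 11 counts in each library. All 7 segments that were tested were lower in P-KO in the common effect and passed (edgeR, adjusted p from 2.72e-07 in segment 1 to 0.000892 in segment 4). No P-KO library held more than 8 counts in any of them, so they passed the filter through their WT counts. A segment as low in WT as in P-KO would not have been tested, so the shared direction is no separate support. Over the genome 0.329% of 8197 segments passed in that direction. For single proteins none of the 7 passed, with 0 of 8197 segments passing for FOX2, TDP43 or hnRNP M, although 7, 6 and 7 of the SPA1 segments had an unadjusted p under 0.05. Over the genome 300, 197 and 718 of 8197 segments had such an unadjusted p. DESeq2 called 6 FOX2 segments, 3 TDP43 segments and 2 hnRNP M segments, all lower in P-KO. Over the genome it called 17, 7 and 14 of 8197 segments in the same order. The smallest edgeR adjusted p for a single protein was 0.0696 for FOX2 in segment 1, 0.0721 for TDP43 in segment 9 and 0.294 for hnRNP M in segment 2.

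Between FOX2 and TDP43 in WT cells, the tested segments furthest apart by fitted log2 fold change were 4, 7 and 9. Segment 4 held 104 and 73 counts for FOX2, against 17 and 0 for TDP43, and segment 7 held 68 and 136 for FOX2, against 0 and 31 for TDP43. Segment 9, the 3′ end, ran the other way with 10 and 22 counts for FOX2, against 233 and 144 for TDP43. Neither protein's replicates overlapped the other's in these 3 segments, nor in segments 1 and 2, where TDP43 was higher. The share of segments genome-wide without such overlap was not counted, so nothing is read from it.

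On the scale of all window counts of a library, segment 4 averaged 364 ± 157 CPM for FOX2 and 40.9 ± 57.9 CPM for TDP43, segment 7 averaged 391 ± 113 CPM for FOX2 and 54.8 ± 77.5 CPM for TDP43, and segment 9 averaged 61.0 ± 21.6 CPM for FOX2 and 815 ± 433 CPM for TDP43 (SD, n = 2 each). No segment passed (edgeR, adjusted p = 0.178 in segment 4, 0.272 in segment 7 and 0.218 in segment 9), where 2.40% of segments passed genome-wide. The unadjusted edgeR p was under 0.05 in 2 of the 7, against 1664 of 8197 segments genome-wide. DESeq2 called segment 9 lower in FOX2 than in TDP43 (adjusted p = 0.0107) and no other, and genome-wide it called 493 of 8197 segments. The calls of these segments thus depend on the tool and the fit, as listed in the closing section.

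hnRNP M was compared with both other proteins over the same segments. In segment 9 TDP43 had 815 ± 433 CPM and hnRNP M 89.2 ± 11.6 CPM (edgeR, adjusted p = 0.140), and in segment 7 FOX2 had 391 ± 113 CPM and hnRNP M 361 ± 63.5 CPM. In segment 4 hnRNP M had 50 counts in replicate 1 and 6 in replicate 2, so its level there, 430 ± 539 CPM, rested on 1 library. No segment passed for FOX2 against hnRNP M (edgeR, 0 of 7 tested, where 5.26% of segments passed genome-wide). There 0 had an unadjusted edgeR p under 0.05 and DESeq2 called 0, against 1808 and 418 of 8197 segments genome-wide. None passed for TDP43 against hnRNP M (edgeR, 0 of 7, where 0.488% passed genome-wide). In that comparison 1 had an unadjusted edgeR p under 0.05 and DESeq2 called 2, against 1566 and 340 of 8197 genome-wide. The 3 comparisons use the same 6 WT libraries and are not independent of one another.

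**Figure D3:**
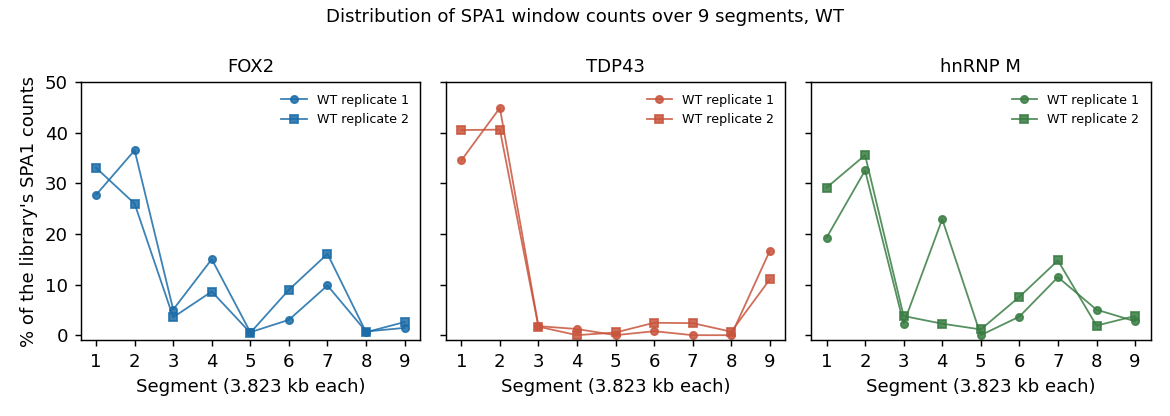
Percent of a WT library's SPA1 window counts (vertical axis) in each of 9 segments of 3.823 kb from the 5′ end (horizontal axis), one panel per protein and one line per replicate. Segments 1 and 2 are highest in every library except hnRNP M WT replicate 1, where segment 4 passes segment 1; FOX2 has further counts in segments 4, 6 and 7, and TDP43 in segment 9.

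Listed positions in SPA1 were almost all intronic in the authors' annotation, 97.5% to 100% in each library with any. Most lay in intron 5 of ENST00000557230.1, from 0.2 to 15.042 kb, which held 83.8% and 55.2% of the SPA1 counts in FOX2 WT, 81.6% and 75.2% in TDP43 WT, and 77.1% and 70.1% in hnRNP M WT. Intron 8 of ENST00000551631.2, from 22.267 to 34.404 kb, held 14.2% and 27.9% in FOX2 WT, 16.7% and 14.6% in TDP43 WT, and 22.9% and 28.0% in hnRNP M WT. The lower FOX2 value of 55.2% went with 15.6% assigned in that library to intron 1 of ENST00000551361.1, which covers part of the same stretch. None of the 7 transcripts listed in SPA1 had an identifier in the RefSeq table, so no gene name is attached to them.

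Windows in SPA1 held more counts each than windows in general. In WT they averaged 7.36 and 6.93 counts for FOX2, against 2.76 and 2.93 over the whole libraries, and 11.5 and 10.96 for TDP43, against 3.19 and 3.12. For hnRNP M they averaged 9.08 and 4.63, against 8.44 and 3.81, so the excess was small there. The lowest count listed in SPA1 was 4 and 3 in FOX2 WT, 4 and 3 in TDP43 WT and 4 and 2 in hnRNP M WT. Over each whole library it was 2. A higher floor of the lists raises such a mean, and its part here was not tested. Counts were spread over many windows: the 5 highest held 14.5% and 16.9% of the FOX2 counts in SPA1, 17.3% and 20.9% of the TDP43 counts and 27.5% and 18.9% of the hnRNP M counts.

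Binding positions repeated between WT replicates more often in SPA1 than over whole libraries. For FOX2, 42 of 94 windows of replicate 1 (44.7%) overlapped a window of replicate 2 by 1 nt or more, and 42 of 122 of replicate 2 (34.4%) with one of replicate 1, whereas 6.80% and 5.60% did over whole libraries. For TDP43 it was 70 of 121 (57.9%) and 67 of 119 (56.3%), whereas 8.39% and 6.00% did over whole libraries. For hnRNP M it was 5 of 24 (20.8%) and 5 of 57 (8.77%), against 1.49% and 0.346%. Windows were dense in parts of SPA1 and held more counts each than elsewhere, and the part of either in these shares was not tested.

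The share of nucleotides within reach of a window of the other replicate gives the density beside the overlap. In the first 6 kb, 29 of 60 FOX2 windows of replicate 1 (48.3%) repeated, where 22.0% of nucleotides were in reach. Between the first 6 kb and the last 3 kb, 12 of 32 repeated (37.5%), where 4.08% of nucleotides were in reach. For TDP43 in the last 3 kb, 14 of 19 windows of replicate 1 (73.7%) repeated, where 11.1% of nucleotides were in reach.

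Both WT replicates listed the same 39 FOX2 sites, 64 TDP43 sites and 5 hnRNP M sites. Of the FOX2 sites 28 lay in the first 6 kb, 10 in the middle and 1 in the last 3 kb. Of the TDP43 sites 49 lay in the first 6 kb, 3 in the middle and 12 in the last 3 kb. Of the hnRNP M sites 4 lay in the first 6 kb and 1 in the middle. Their mean level was 16.1 to 113 CPM for FOX2 (median 26.9) and 19.1 to 275 CPM for TDP43 (median 39.7). A site was also listed in P-KO of the same protein for 2 FOX2 sites, 2 TDP43 sites and 0 hnRNP M sites. The count given below for a site is the highest listed within reach of its centre, at a position kept as a window or not. Its CPM is that of the windows matched between the 2 WT replicates, so count and CPM need not correspond.

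The FOX2 site of highest level was centred on 25253144, 26.003 kb from the start, in intron 8 of ENST00000551631.2. It had 0 and 3 counts in FOX2 P-KO, against 29 and 27 in FOX2 WT (113 ± 27.6 CPM, SD, n = 2), and was listed at 0 in all 4 TDP43 and all 4 hnRNP M libraries. The next was 25249550, at 22.409 kb in the same intron, with 0 and 0 counts in FOX2 P-KO, against 9 and 41 in FOX2 WT, and with 8 and 3 counts in hnRNP M WT. Its replicates differed widely (91.6 ± 71.3 CPM). The third, 25242048 at 14.907 kb, had 0 and 0 in FOX2 P-KO, against 24 and 6 in FOX2 WT (65.3 ± 62.9 CPM), and was listed for FOX2 alone. These 3 sites lay outside the first 6 kb and none was listed for TDP43, but the third was level with the next site within its spread.

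The next 2 FOX2 sites lay in the first 6 kb at sites of TDP43. Site 25229889, at 2.748 kb in intron 5 of ENST00000557230.1, had 0 and 0 counts in FOX2 P-KO, against 10 and 24 in FOX2 WT (64.4 ± 26.5 CPM). Site 25229786, at 2.645 kb, had 0 and 0 in FOX2 P-KO, against 14 and 17 in FOX2 WT (61.4 ± 3.62 CPM), the closest pair of replicates among the 5.

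The highest TDP43 site was 25229890, at 2.749 kb, 1 nt from the FOX2 site just given. It had 0 and 0 counts in TDP43 P-KO, against 40 and 101 in TDP43 WT (275 ± 116 CPM), and 11 and 0 in hnRNP M WT. The other 4 of the 5 highest lay within about 0.1 kb of one another, in intron 5 of ENST00000557230.1. Site 25231996, at 4.855 kb, had 0 and 0 in TDP43 P-KO, against 55 and 43 in TDP43 WT. Its matched windows averaged 184 ± 45.7 CPM.

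Site 25232044, at 4.903 kb, had 0 and 0 counts in TDP43 P-KO, against 47 and 33 in TDP43 WT. Site 25232014, at 4.873 kb, had 0 and 0 in TDP43 P-KO, against 61 and 18 in TDP43 WT, and site 25232098, at 4.957 kb, had 0 and 0 in TDP43 P-KO, against 43 and 30 in TDP43 WT. All 4 were also listed in at least 1 FOX2 WT library, with 4 to 19 counts. The highest TDP43 site of the 3′ block, sixth in order, was 25261539 at 34.398 kb, with 0 and 0 in TDP43 P-KO, against 78 and 30 in TDP43 WT.

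The 3′ block of TDP43 ran across the downstream end of SPA1. The last 1 kb of SPA1 held 0 and 0 TDP43 counts in P-KO, against 216 and 136 in WT, and the 1 kb after it held 0 and 0 in P-KO, against 253 and 158 in WT. FOX2 had 0 and 0 in P-KO, against 5 and 4 in WT, before that end and 0 and 0 in P-KO, against 5 and 9 in WT, after it. hnRNP M had 0 and 0 in P-KO, against 0 and 7 in WT, before it and 0 and 0 in P-KO, against 0 and 12 in WT, after it. The block is thus split by the end of the interval and is counted here only in part.

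FOX2 and TDP43 shared repeated sites in the first 6 kb, called the 5′ cluster here. Of the 39 repeated FOX2 sites, 17 (43.6%) shared at least 1 nt with a repeated TDP43 site, and of the 64 repeated TDP43 sites, 19 (29.7%) did so with a repeated FOX2 site; all of these lay in the first 6 kb. There, 26 of 28 FOX2 sites were listed in at least 1 TDP43 WT library, whereas 2 of 10 FOX2 sites in the middle were. Of the 49 TDP43 sites in the first 6 kb, 41 were listed in at least 1 FOX2 WT library, whereas 0 of 3 in the middle and 2 of 12 in the last 3 kb were.

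TDP43 windows were also dense in the 5′ cluster. In the first 6 kb 39 of 60 FOX2 windows of replicate 1 (65.0%) lay at a TDP43 window of replicate 1, where 27.4% of nucleotides were in reach, and in the middle 1 of 32 (3.125%) did, where 0.827% were in reach. The share above that density was not tested. Where 17 FOX2 sites met TDP43 sites, all were listed at 0 in replicate 1 of FOX2 P-KO and of TDP43 P-KO; 1 was listed in FOX2 P-KO replicate 2 and another in TDP43 P-KO replicate 2.

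**Figure D4:**
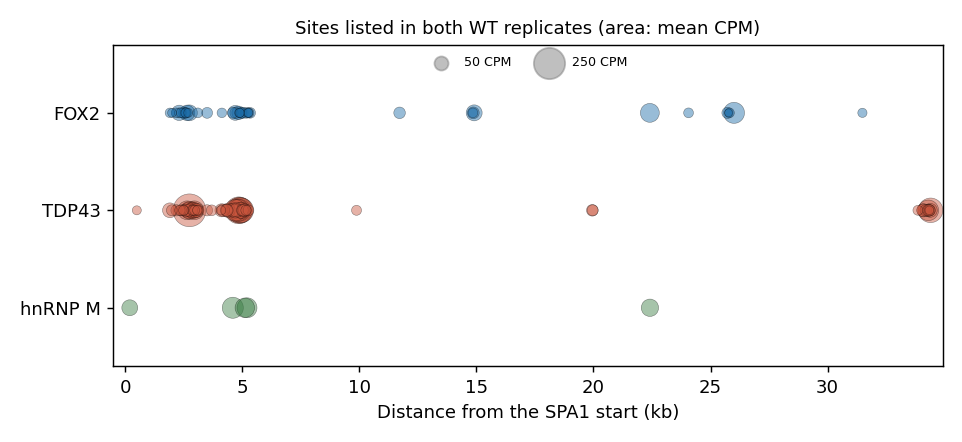
Sites listed in both WT replicates along SPA1 (distance from the start in kb), one row per protein, with the area of each circle set by the mean CPM. FOX2 has 39 sites, TDP43 64 and hnRNP M 5; 17 FOX2 sites meet TDP43 sites, all in the first 6 kb, and 12 TDP43 sites form the block at the 3′ end.

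The highest of the shared sites by summed CPM was the pair 25229889 (FOX2) and 25229890 (TDP43). The next 3 were 25231991 and 25231996, with 6 and 19 counts in FOX2 WT, 25232040 and 25232044, with 5 and 6, and 25232022 and 25232014, with 7 and 4. The mean CPM of TDP43 was higher than that of FOX2 at all 4, but at the fourth the SD of its matched TDP43 windows (188 CPM) exceeded their mean of 161 CPM. The 61 and 18 counts given above for that TDP43 site are the highest listed near it and need not be those of these windows. The fifth, 25231846 and 25231845 at 4.705 kb, had 12 and 17 counts in FOX2 WT (56.9 ± 2.85 CPM) and 13 and 49 in TDP43 WT (118 ± 78.2 CPM), a difference within the spread of TDP43.

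hnRNP M had few repeated sites, and 4 of its 5 lay at sites listed for FOX2. Site 25231741, at 4.6 kb, had 0 and 0 counts in hnRNP M P-KO, against 11 and 6 in hnRNP M WT (114 ± 91.9 CPM), with 10 and 4 in FOX2 WT and 9 and 14 in TDP43 WT. Site 25232348, at 5.207 kb, had 0 and 0 in hnRNP M P-KO, against 11 and 3 in hnRNP M WT, with 20 and 7 in FOX2 WT and 7 and 0 in TDP43 WT. Site 25232254, at 5.113 kb, had 0 and 0 in hnRNP M P-KO, against 8 and 8 in hnRNP M WT, with 12 and 0 in FOX2 WT and 12 and 7 in TDP43 WT. These 3 sites were listed for every protein in WT.

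Site 25249554, at 22.413 kb, had 0 and 0 counts in hnRNP M P-KO, against 8 and 3 in hnRNP M WT, and lay at the second FOX2 site, with none for TDP43. Site 25227341, 0.2 kb from the start, had 0 and 0 in hnRNP M P-KO, against 7 and 2 in hnRNP M WT, and was listed for neither other protein. Repeated hnRNP M sites met repeated sites of FOX2 in 2 of 5 cases (2 of 39 FOX2 sites, 5.13%) and of TDP43 in 2 of 5 cases (2 of 64 TDP43 sites, 3.125%). Among all hnRNP M WT windows, 9 of 24 (37.5%) and 28 of 57 (49.1%) lay within reach of a position listed for FOX2 in WT. For TDP43 it was 10 (41.7%) and 27 (47.4%), for both 6 and 21, and for neither 11 and 23. Such positions include those not kept as windows.

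In all, 24 distinct hnRNP M sites lay within reach of positions listed for both other proteins in WT. The 5 highest by summed CPM were centred on 25229888, 25231741, 25232026, 25232348 and 25229789, from 2.648 to 5.207 kb, all in the 5′ cluster. At 25232026 the counts were 7 and 0 in FOX2 WT, 54 and 11 in TDP43 WT, and 0 and 3 in hnRNP M WT, and at 25229789 they were 14 and 17, 20 and 24, and 0 and 4 in the same order. hnRNP M had the lowest summed count at both, all of it in replicate 2.

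The 11 P-KO windows held 31 counts, against 4719 in the 537 WT windows, and none had more than 4 counts. FOX2 P-KO replicate 2, the deepest library, held 4: 25232153 with 3 counts, 25232362 with 4, 25252698 with 3 and 25253141 with 3. The first, the second and the last of these lay at sites listed in FOX2 WT, the last at the highest FOX2 site. TDP43 P-KO replicate 1 held 1, 25254634 with 4 counts, which met no WT window.

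TDP43 P-KO replicate 2 held 6 windows of 2 to 4 counts, of which 25229791 was the highest with 4 counts, against 20 and 24 in TDP43 WT at the same place. Of the 11 windows, 5 lay at a site listed in WT of the same protein and 6 at a site listed in WT of any protein. The lowest count that a list held depended on the transcript and the library. In intron 5 of ENST00000557230.1 it was 3 in FOX2 P-KO replicate 2, against 5 and 5 in FOX2 WT, and 2 in TDP43 P-KO replicate 2, against 5 and 6 in TDP43 WT. All 8 P-KO windows in that intron had 2 to 4 counts, and no position with so few was assigned to it in WT libraries of the same protein. Under that label the lists thus do not reach down to the same count. FOX2 WT replicate 2 did list positions of 4 counts over part of the same stretch, from 1.885 to 14.967 kb. Those were assigned to intron 1 of ENST00000551361.1.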

How the data were processed

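Crosslink positions were analysed in 12 iCLIP libraries of H9 cells. Reads had been aligned to GRCh37 (hg19) by Bowtie, per the submitters' processing notes; its version is not given in the sources used here, nor is the program that called positions. For each library there is 1 deposited file of 1-nt positions, each with a transcript, intron number, strand and raw deposited count. The last deposited column is a p-value or a q-value of at most 0.05, and the file does not say which. Whether counts are reads or collapsed cDNAs is not stated either, and the lowest deposited count was 2.

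Each count was treated as covering 5 nt on both sides, and positions were kept from the highest count downwards at least 11 nt apart on a strand; their counts are window counts. CPM is a window count scaled to a library total of 1000000. Groups and replicate numbers came from the labels. Window counts were summed over tiles of 34407 nt and segments of 3823 nt laid from the SPA1 start, filtered with filterByExpr, TMM-normalized (factors 0.471 to 2.51 for tiles) and tested with edgeR 4.0.16 in R 4.3.3 (quasi-likelihood F test, all 12 libraries in one fit, Benjamini-Hochberg adjustment over all tiles or segments, threshold 0.05). The common effect had protein as an additive term. DESeq2 1.42.0 was an alternative; others were other filters, window definitions, sample sets, a replicate block and leaving out each library. Sites matched when windows shared at least 1 nt. The count at a site in a library, and whether it was listed there, used every listed position. Such a position had to share at least 1 of its 11 nt with the site. A single value was tested by exact permutation in Python 3.11.15 with scipy 1.17.1.

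Named sites were, for each protein, the 5 WT sites of highest mean CPM listed in both replicates, the 5 highest shared by FOX2 and TDP43, the 5 highest of all 3 proteins, every P-KO window where a library had at most 5 and otherwise its highest, and all segments; the sixth TDP43 site was added after its values were seen. The interval, lists and rules were chosen with earlier results of these data known. No hg19 genome was used here, so no sequence is printed and no motif was searched.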

Additional observations from a re-analysis of the deposited data

How the results depend on the processing

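Of 308 alternative values over 21 results, 260 kept their direction and their call or stayed within the limits set for a value without a test, and 0 changed direction. The lower share of SPA1 in P-KO kept its exact permutation p of 0.00926 under all alternatives that kept the 12 libraries; the difference was -0.418 to -0.348 percentage points leaving out a library. The common effect passed throughout, with a log2 fold change of -9.72 to -5.58. Same-numbered replicates were not taken as pairs: the correlation of their deviations was 0.0834, 0.0633 and 0.0315 over tiles for FOX2, TDP43 and hnRNP M, and 0.126, 0.109 and 0.0244 over segments, so not every pair passed 0.1 on either grid. With a replicate block the SPA1 tile had -7.68 for FOX2 (edgeR, adjusted p = 0.326), -7.38 for TDP43 (0.335) and -11.2 for hnRNP M (-11.175, 0.187), and none passed; with the groups compared alone it had -7.28 for TDP43 (0.0962) and -10.8 for hnRNP M (-10.758, 0.0924). Leaving out one library at a time gave -12.4 to -6.39 for FOX2, -8.20 to -6.79 for TDP43 and -11.4 to -10.8 for hnRNP M (-11.405 to -10.788). The hnRNP M values, and the -12.4 for FOX2, which is the fit without FOX2 P-KO replicate 2, set WT against P-KO libraries listed at 0; they depend on the prior count of the fit, are no bounds and say nothing about stability. The causes were not tested.

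Segments lower in P-KO numbered 7 in the common effect and 4 when windows were counted in place of their counts, which left 4 segments tested; leaving out a library gave 6 to 7. For FOX2 0 passed, against 3 without TMM, 6 with DESeq2, 6 with the replicate block, 4 with the groups compared alone, 2 with windows of at least 3 counts, 3 by number of windows, 2 without mitochondrial and ribosomal contig positions, and 0 to 4 leaving out a library (4 without either hnRNP M WT library). For TDP43 0 passed, against 3 without TMM, 3 with DESeq2, 3 with the block, 1 with windows of at least 3 counts, 3 by number of windows and 0 to 3 leaving out a library (3 without hnRNP M WT replicate 1 or replicate 2). For hnRNP M 0 passed, against 2 with DESeq2, 3 with the block, 2 by number of windows and 0 to 2 leaving out a library (2 without hnRNP M WT replicate 1). Between FOX2 and TDP43 in WT 0 passed, against 1 with DESeq2, 1 with the block, 2 with the groups alone, 1 with listed p or q at most 0.01 and 3 by number of windows. Genome-wide 197 of 8197 segments passed in the main fit, 493 with DESeq2 and 491 with the block. With the groups alone it was 1522 of 2851, at the stricter p or q 88 of 4961 and by number of windows 391 of 740. The SPA1 counts are not read as support without these shares. Between TDP43 and hnRNP M 0 passed, against 2 with DESeq2, 1 with the block and 2 by number of windows. Genome-wide 40 of 8197 passed in the main fit, 340 with DESeq2, 295 with the block and 141 of 740 by number of windows. Between FOX2 and hnRNP M 0 passed in every setting run. For P-KO against WT, 17, 7 and 14 of 8197 segments passed genome-wide with DESeq2 for FOX2, TDP43 and hnRNP M. In that order it was 6, 5 and 0 without TMM and 18, 6 and 11 with the block. Windows of at least 3 counts gave 4, 2 and 0 of 5294, and the number of windows 13, 9 and 11 of 740. FOX2 had 9 of 3125 with the groups alone and 3 of 8278 without mitochondrial and ribosomal contig positions.

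Sites repeated between FOX2 WT replicates were 44.7%, against 78.7% with centres within 50 nt and 31.0% with listed p or q at most 0.01. For TDP43 they were 56.3%, against 77.3% within 50 nt and 44.5% with at least 6 of 11 nt shared. For hnRNP M they were 20.8%, against 41.7% within 50 nt. FOX2 sites shared with TDP43 were 43.6%, against 65.0% within 50 nt and 27.8% at the stricter p or q. The mean position of TDP43 was 8.79 kb by count and 9.84 kb with each window weighted equally. The hnRNP M shares rest on 24 and 57 WT windows.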
